A study of Homo sapiens with 20 samples.

Results

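Fibrinogen is the plasma protein that thrombin turns into the fibrin of a blood clot. It is a dimer in which each unit holds 1 Aα, 1 Bβ and 1 γ chain, and these chains are made by the genes *FGA*, *FGB* and *FGG*. The genes lie side by side and are transcribed mainly in hepatocytes, where interleukin-6 acting through STAT3, glucocorticoids and the factors HNF1 and C/EBP are known to raise their mRNAs together in the acute phase response. The 3 genes were followed here at the pancreatic progenitor (PP) and human islet-like organoid (hILO) stages. They were chosen by their symbols, and as a group on the opposite genotype differences at the 2 stages, on their ratios and on their course with actinomycin D. Those values are therefore given as descriptions without a test, and tests are given only for other genes.

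All cells came from MEL1, a human embryonic stem cell line that carries GFP in 1 allele of the insulin gene. WT cells were compared with A5-KO cells, a picked line in which *ALKBH5*, the gene of an RNA demethylase that removes the methyl mark m6A from mRNA, was disrupted by CRISPR-Cpf1 with crRNAs against the first exon. The results describe 1 such line, and effects of the deletion and of the line cannot be told apart. Untreated hILOs gave 2 libraries for each genotype, in TPM. PPs of each genotype were collected after 0, 1, 2 or 3 h with the transcription inhibitor actinomycin D (Act D) at 1 µg/ml, with 2 libraries for each time, and gave CPM with the ERCC spike-ins removed. The 3 members were among 60624 identifiers listed in the hILO files and 60623 in the PP files. The libraries of each genotype and time are called replicates 1 and 2 here. The study calls its replicates biological and says that the wells of each were divided from 1 batch of cells.

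*ALKBH5* was at 78.8 to 81.9 TPM in WT hILOs and at 3.42 to 4.16 TPM in A5-KO hILOs, and at 149 to 172 CPM in WT PPs and 18.8 to 19.1 CPM in A5-KO PPs at 0 h. The PP libraries held between 30516384 and 35206514 reads, and TPM keeps no depth. Replicates differed by a median of 0.07 to 0.15 on the log2 scale in genes at a mean of at least 10, other than WT PPs at 2 h, which differed by 0.20. hILOs held endocrine mRNA (summed level of 11 markers, 26993 to 37455 TPM), and PPs held progenitor markers (10 markers, 1046 to 1390 CPM at 0 h) with *INS* and *GCG* below 0.1 CPM. Of 9 megakaryocyte and blood markers, which would mark platelet precursors that carry fibrinogen, none reached a mean of 1 TPM in hILOs. In PPs at 0 h 1 of the 9 reached a mean of 1 CPM in each genotype. Their sum there was 4.68 to 5.02 CPM in WT and 2.69 to 4.22 CPM in A5-KO.

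The cluster spans 49957 bases of chromosome 4 (GRCh38, chr4:154563011-154612967). *FGB* (ENSG00000171564) occupies 154563011 to 154572807 on the plus strand. *FGA* (ENSG00000171560) occupies 154583126 to 154590742 and *FGG* (ENSG00000171557) 154604134 to 154612967, both on the minus strand. The reference transcripts are FGA-201 with 5 exons and 2209 bases, FGB-201 with 8 exons and 3641 bases, and FGG-201 with 9 exons and 2072 bases. The longer form of *FGA* has 3654 bases, and neither table separates forms of 1 gene.

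The 200 bases before a RefSeq start site of each gene are shown because the 3 genes differed between genotypes in the same direction within each stage. They were copied from the RefSeq promoter table (GRCh38.p14), and all 3 members matched. Capitals mark CTGGGA, the core of the element through which interleukin-6 is known to act on these genes, and GTTAAT, the repeated arm of the HNF1 site, on either strand (TCCCAG and ATTAAC are the other strand). The windows are chr4:154590743-154590942 on the minus strand for *FGA*, chr4:154562811-154563010 on the plus strand for *FGB* and chr4:154612657-154612856 on the minus strand for *FGG*. The RefSeq start used for *FGG* lies inside the gene as given above, and so does its window.
FGA: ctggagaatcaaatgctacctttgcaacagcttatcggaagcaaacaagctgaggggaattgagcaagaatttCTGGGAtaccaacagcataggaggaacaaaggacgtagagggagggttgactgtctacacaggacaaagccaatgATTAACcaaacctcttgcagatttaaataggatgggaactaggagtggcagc
FGB: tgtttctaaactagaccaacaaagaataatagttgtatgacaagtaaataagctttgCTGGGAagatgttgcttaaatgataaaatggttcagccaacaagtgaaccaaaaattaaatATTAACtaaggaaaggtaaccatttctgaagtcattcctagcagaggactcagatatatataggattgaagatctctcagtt
FGG: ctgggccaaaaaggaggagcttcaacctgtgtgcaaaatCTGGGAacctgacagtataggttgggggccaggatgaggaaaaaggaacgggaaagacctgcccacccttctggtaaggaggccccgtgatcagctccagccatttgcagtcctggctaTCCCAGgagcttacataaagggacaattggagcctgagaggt

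CTGGGA lay on the strand of the gene in all 3 members, with its first base 127 bases before the start in *FGA*, 143 in *FGB* and 161 in *FGG*, and *FGG* held a match on the other strand 42 bases before the start. Of 35116 promoters, 28.7% held CTGGGA within 250 bases before the start. The longer form CTGGGAA, which 9.15% of promoters held, was in *FGB* and *FGG* but not in *FGA*. GTTAAT, in 6.23% of promoters, lay 52 bases before the start of *FGA* and 82 bases before that of *FGB*. These letters were not in the window of *FGG*. A match is a description of the sequence and does not show that a factor was bound in these cells.

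In hILOs all 3 chains were abundant and lower in A5-KO. *FGA*, the gene of the Aα chain that carries the fibrinopeptide thrombin removes first, stood at 81.5 and 81.9 TPM in the WT libraries against 51.4 and 50.0 TPM in the A5-KO libraries. *FGB*, the gene of the Bβ chain, reached 1362 and 1394 TPM in the WT libraries against 737 and 748 TPM in the A5-KO libraries. *FGG*, the gene of the γ chain, through which fibrinogen binds the platelet integrin, stood at 714 and 660 TPM in the WT libraries against 332 and 324 TPM in the A5-KO libraries. For each chain both A5-KO libraries lay below both WT libraries, and replicates stood close together beside the gap. Both A5-KO libraries lay below both WT libraries for 37.1% of the 17300 genes tested, and because the members were chosen on this contrast nothing is read from their count of 3.

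The WT mean was 1.61 times that of A5-KO for *FGA*, 1.86 times for *FGB* and 2.09 times for *FGG*. On the log2(TPM + 1) scale the differences, A5-KO minus WT, were -0.68 (standard error 0.05) for *FGA*, -0.89 (0.03) for *FGB* and -1.06 (0.05) for *FGG*, against a median of -0.06 over all genes tested. Of those genes, 2.75% had a lower difference than *FGG* and 7.71% a lower difference than *FGA*. *FGB* ranked 83 and 87 from the top among all genes above 0 in the WT libraries and 159 and 163 in the A5-KO libraries. In a bulk sample, fewer cells of a type and less RNA per cell cannot be told apart.

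In PPs at 0 h the order of the genotypes was the reverse and the levels were low. *FGA* was at 4.31 and 3.35 CPM in WT and 12.2 and 7.97 CPM in A5-KO. *FGB* was at 4.56 and 3.07 CPM in WT and 16.9 and 15.3 CPM in A5-KO. *FGG* was at 2.18 and 1.08 CPM in WT and 6.68 and 6.30 CPM in A5-KO. Every A5-KO library lay above every WT library for each chain, which held for 29.0% of the 13911 genes tested. The lowest of these values, *FGG* in WT replicate 2, came from 35 reads, and its 95% counting interval (exact Poisson, counting error only) was 0.755 to 1.51 CPM.

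The A5-KO mean was 2.63 times that of WT for *FGA*, 4.21 times for *FGB* and 3.97 times for *FGG*. The differences on the log2(CPM + 1) scale were 1.18 (standard error 0.21), 1.84 (0.18) and 1.54 (0.22), and that scale understates changes at such levels. With a pseudocount of 0.1 they were 1.35, 2.07 and 2.00. Of the genes tested, 99.5% had a lower difference than *FGA* and 99.8% a lower one than *FGB*. Per exon length the chains stood near the middle of all genes above 0 in WT, with 36.6% to 52.6% of genes below them, and at 58.1% to 68.6% in A5-KO.

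**Figure D1:**
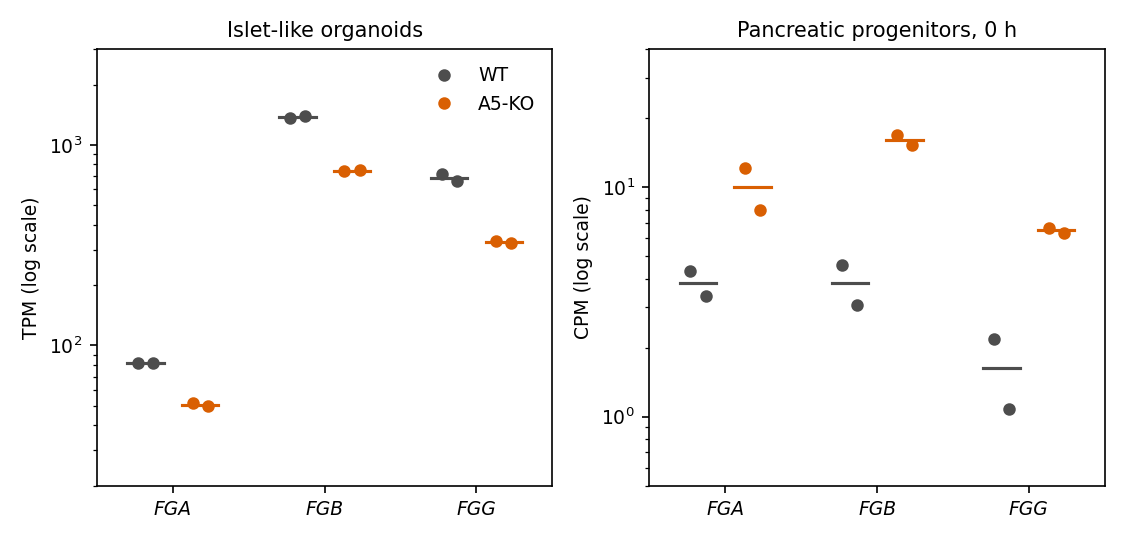
Level of each chain in every library, in TPM for hILOs (left) and CPM for PPs at 0 h (right), both on log axes. Points are libraries and bars are means of 2; A5-KO lies below WT for all 3 chains in hILOs and above WT for all 3 in PPs.

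Opposite differences of this kind were counted over all genes, and because the members were chosen on them nothing about the members is read from the counts. Of 12729 genes tested at both stages, 1365 (10.7%) had both A5-KO libraries below both WT libraries in hILOs and above them in PPs at 0 h. The number that were called lower in hILOs and higher in PPs was 9 (0.0707%). Within a single stage, 4.09% of genes were called lower in hILOs and 1.57% higher in PPs at 0 h. By order alone the shares within a single stage were 37.1% in hILOs and 29.0% in PPs. How far the genes with opposite differences exceeded what these shares would give was not tested. The stages differed in RNA kit, input and unit, so each difference was taken within its own stage, and the difference between the stages was not tested.

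Of the hepatocyte markers, those called at both stages were higher in A5-KO at both. Albumin (*ALB*) rose in A5-KO at both stages, from 929 to 934 TPM up to 1846 to 1913 TPM in hILOs (log2 difference 1.01, standard error 0.03, limma adjusted *p* = 0.0021) and from 4.49 to 4.51 CPM up to 14.4 to 16.6 CPM in PPs (1.58, 0.15, adjusted *p* = 0.00049). Transthyretin (*TTR*), a carrier of thyroid hormone, rose by 1.31 in hILOs (adjusted *p* = 0.0011) and by 2.19 in PPs (adjusted *p* = 3.1e-05). α-fetoprotein (*AFP*), the albumin of the fetal liver, rose from 557 to 1319 CPM in PPs (log2 difference 1.24, adjusted *p* = 1.3e-05), whereas in hILOs it was at 5633 and 6351 TPM (0.17, adjusted *p* = 0.039), short of 1.5-fold. The apolipoprotein gene *APOA2* rose in hILOs from 837 to 3802 TPM (2.18, adjusted *p* = 0.00053) and was at 68.7 and 64.4 CPM in PPs (-0.10, adjusted *p* = 0.72).

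The protease inhibitor *SERPINA1* was at 1173 and 1319 TPM in hILOs (0.17, adjusted *p* = 0.043) and at 341 and 234 CPM in PPs (-0.55, adjusted *p* = 0.0496), within 1.5-fold in both. Without WT replicate 1 or A5-KO replicate 2 its difference in PPs passed both limits, at -0.68 and -0.76. Of 14 hepatocyte markers tested in hILOs 5 rose and 1 fell, with a median log2 difference of 0.27 (all genes -0.06), and of 11 tested in PPs 4 rose and none fell, with a median of 0.38 (all genes 0.03). The background was 2.7% of genes called higher and 4.09% called lower in hILOs, and 1.57% called higher and 1.13% called lower in PPs. The summed level of the 14 markers was 24369 to 24606 TPM in WT hILOs and 41373 to 41831 TPM in A5-KO hILOs. In PPs at 0 h it was 1842 to 1952 CPM in WT and 2589 to 2703 CPM in A5-KO. The mean of *AFP* in PPs, given above, rose by about as much as this sum. The rise of the sum in PPs therefore does not show a rise of the other markers as a set. The part of hepatocyte-like cells in the fibrinogen levels was not tested.

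**Figure D2:**
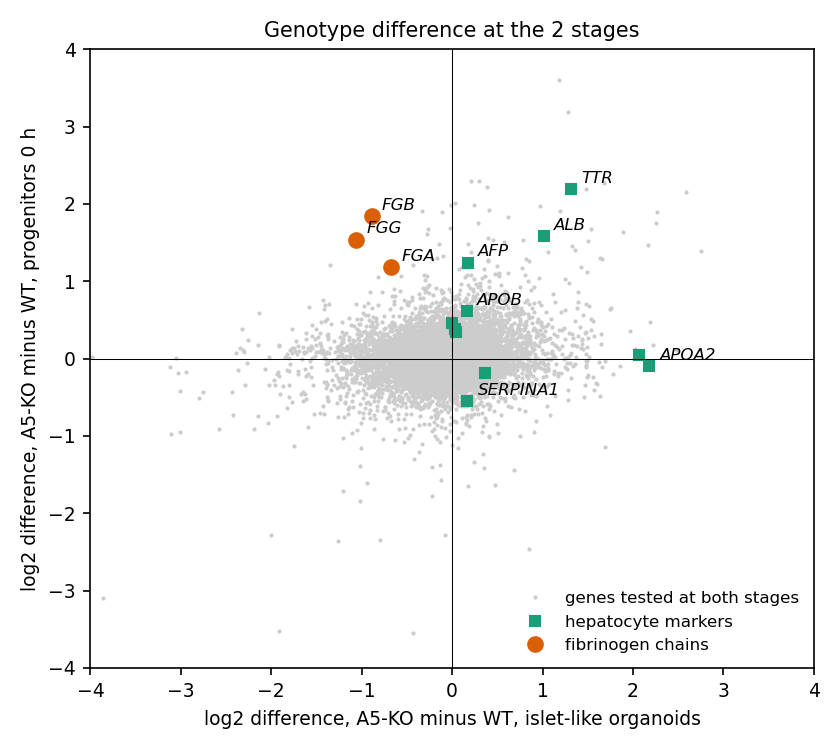
Log2 difference, A5-KO minus WT, in hILOs (horizontal) and PPs at 0 h (vertical) for the genes tested at both stages (grey), the hepatocyte markers (green) and the fibrinogen chains (orange). Genes beyond 4 on either axis lie outside the frame; the 3 chains sit in the upper left and *ALB* and *TTR* in the upper right.

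Other secreted proteins of the acute phase moved both ways in hILOs. Of 10 tested, 4 rose and 2 fell (median log2 difference 0.82). C-reactive protein (*CRP*), the classical acute phase marker, rose from 0.29 to 0.41 TPM up to 14.5 to 17.4 TPM (log2 difference 3.64, standard error 0.17, adjusted *p* = 0.0035). The protease trap *A2M* rose from 205 to 569 TPM (1.47, adjusted *p* = 0.0021), and ceruloplasmin (*CP*), a copper carrier, fell from 184 to 49.6 TPM (-1.88, adjusted *p* = 0.0026). In PPs limma called none of the 5 tested, and *CRP*, *SAA2*, *HP* and *ITIH4* were below 0.1 CPM in all PP libraries at 0 h.

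Genes that act before and after fibrinogen in clotting were tested as fixed lists. Of 17 clotting factors and inhibitors in hILOs 6 rose and none fell (median 0.54). Those that rose included *SERPIND1*, heparin cofactor II (26.2 to 52.4 TPM, log2 difference 0.97, adjusted *p* = 0.0062), *F13B*, the carrier subunit of the factor that cross-links fibrin (14.8 to 25.9 TPM, 0.77, adjusted *p* = 0.027), and *KNG1*, kininogen (9.44 to 16.6 TPM, 0.75, adjusted *p* = 0.021). None of 10 tested in PPs was called by limma (median -0.11). The calls of *F13B* and *KNG1* were lost in 5 and 6 of 9 alternative analyses, and that of *SERPIND1* in 2.

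In fibrinolysis, which dissolves fibrin, 2 of 9 genes fell and 1 rose in hILOs, and 1 fell and 1 rose in PPs. The urokinase receptor *PLAUR* fell in hILOs (11.8 to 3.54 TPM, log2 difference -1.54, adjusted *p* = 0.039), *CPB2*, which protects fibrin from lysis, rose there (2.17 to 10.5 TPM, 1.87, adjusted *p* = 0.013), and *SERPINE2*, a serine protease inhibitor, rose in PPs (15.4 to 24.1 CPM, 0.62, adjusted *p* = 0.027). The calls of *PLAUR* and *CPB2* were each lost in 5 of 9 alternatives, and that of *SERPINE2* in 3 of 12.

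Of the fibrinogen receptors, *ITGA5*, an integrin chain, fell at both stages, from 12.6 to 6.24 TPM (-0.91, adjusted *p* = 0.029) and from 142 to 82.5 CPM (-0.77, adjusted *p* = 0.00061). It was the 1 call of 4 tested in hILOs, lost in 6 of 9 alternative analyses, and 2 of 5 tested in PPs fell. Other genes with a fibrinogen-like domain split, with 3 of 9 higher and 1 lower in hILOs. *ANGPTL4*, an inhibitor of lipoprotein lipase, fell (44.5 to 20.2 TPM, -1.10, adjusted *p* = 0.0083), and *FGL2* rose (17.2 to 26.9 TPM, 0.62, adjusted *p* = 0.020), a call lost in 6 of 9 alternatives. The call of *ANGPTL4* was lost in 3 of 9. In PPs, of 6 tested, 1 fell and 1 rose, the latter being the matrix protein tenascin C, *TNC* (15.7 to 27.2 CPM, 0.75, adjusted *p* = 0.0086).

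The known inducers of the cluster were also measured. Of 11 interleukin-6 and STAT3 signalling genes tested in hILOs 2 fell and 1 rose. *SOCS3*, a feedback inhibitor that STAT3 induces, fell from 10.6 to 11.4 TPM down to a mean of 3.13 TPM (log2 difference -1.55, adjusted *p* = 0.010), *CEBPD*, an acute phase transcription factor, fell from 61.7 to 34.7 TPM (-0.81, adjusted *p* = 0.0097), and the glucocorticoid receptor *NR3C1* rose from 28.5 to 54.4 TPM (0.91, adjusted *p* = 0.013). In PPs none of these 11 was called by limma. These 3 calls in hILOs were lost in 4 to 5 of 9 alternative analyses.

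Of 18 hepatic transcription factors 1 fell in hILOs, and in PPs 2 rose and 1 fell. In PPs *FOXA1*, a pioneer factor of gut endoderm, rose from 17.4 to 44.8 CPM (1.33, adjusted *p* = 0.0035), *TBX3*, a regulator of the liver bud, rose from 20.5 to 44.8 CPM (1.09, adjusted *p* = 0.0090) and *ONECUT1*, a factor of liver and pancreas, fell from 17.9 to 6.28 CPM (-1.39, adjusted *p* = 0.0019). Of 8 chaperones that assemble the chains in the endoplasmic reticulum 1 fell in hILOs, *PDIA4* (236 to 149 TPM, -0.66, adjusted *p* = 0.0057), and none in PPs.

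Markers of other cell types moved with genotype too. In hILOs 4 of 11 endocrine markers fell and 1 rose, with *SST* (374 to 107 TPM, -1.79, adjusted *p* = 0.0019), *PPY* (90.8 to 13.6 TPM, -2.66, adjusted *p* = 0.0087) and *GCG* (2231 to 1266 TPM, -0.82, adjusted *p* = 0.0024) among those that fell. Of 7 intestinal markers tested in hILOs (median log2 difference 0.35) 1 fell, *APOA4* (3681 to 2383 TPM, -0.63, adjusted *p* = 0.0028), and of 9 tested in PPs (median 0.38) 1 fell, *TFF3* (31.6 to 11.6 CPM, -1.38, adjusted *p* = 0.0018). *VIL1*, *LGALS4*, *FABP2* and *CDH17*, chosen after their values were seen, had differences of 0.43, 0.43, 0.53 and 0.35 in hILOs (adjusted *p* = 0.0083, 0.0084, 0.0061 and 0.011), short of 1.5-fold. *CDX2*, like *APOA4*, was lower in A5-KO hILOs (-0.10). The summed level of the 10 intestinal markers was 4600 to 4609 TPM in WT hILOs and 3508 to 3589 TPM in A5-KO hILOs. Of 5 mesenchyme markers in hILOs 3 rose, with *POSTN* from 2.36 to 17.3 TPM (2.59, adjusted *p* = 0.040) and *COL1A2* from 4.31 to 17.3 TPM (1.85, adjusted *p* = 0.044), and *VIM* fell from 254 to 121 TPM (-1.07, adjusted *p* = 0.0021). The calls of *POSTN* and *COL1A2* in hILOs were each lost in 5 of 9 alternatives, that of *PPY* in 3 and that of *APOA4* in 2. In PPs 4 of 8 mesenchyme markers rose, with *POSTN* (10.4 to 49.6 CPM, 2.15, adjusted *p* = 3.1e-05), *COL3A1* (23.0 to 61.6 CPM, 1.38, adjusted *p* = 0.00014) and *COL1A1* (7.65 to 14.8 CPM, 0.86, adjusted *p* = 0.014). The part of these cells in the fibrinogen levels was not tested.

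The neighbours of the cluster were compared to see how far along the chromosome a genotype difference reached. Of 10 protein-coding genes within 1 Mb, 5 were tested in hILOs and 4 in PPs, and limma called none of them at either stage. Of all genes tested, 4.09% were called lower and 2.7% higher in hILOs, and 1.13% and 1.57% in PPs. With so few neighbours tested, the lack of calls cannot show how far a difference reached. *PLRG1*, a splicing factor gene and the nearest on the *FGB* side, was at 47.0 to 47.3 TPM in WT and 40.3 to 40.6 TPM in A5-KO hILOs (log2 difference -0.22, adjusted *p* = 0.076), and at 63.1 and 67.6 CPM in PPs (0.10, adjusted *p* = 0.59). *LRAT*, a retinol esterifying enzyme and the nearest on the *FGG* side, was at 2.16 and 2.02 TPM in hILOs (-0.06, adjusted *p* = 0.85). *TLR2* had differences of -0.12 and 0.34 (adjusted *p* = 0.82 and 0.33), *MAP9* of -0.23 and 0.30 (0.20 and 0.30) and *TMEM131L* of -0.21 and 0.17 (0.76 and 0.57) at the 2 stages. For *PLRG1* and *MAP9* both A5-KO libraries lay below both WT libraries in hILOs and above them in PPs, as for 10.7% of genes tested at both stages. In hILOs the libraries of *TLR2*, *TMEM131L* and *LRAT* overlapped between genotypes. *RNF175*, *SFRP2*, *DCHS2*, *RBM46* and *NPY2R* were too low to test.

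The ratio between the chains also differed between the stages. In hILOs the ratio of *FGA* to *FGB* was 0.0598 and 0.0587 in WT and 0.0697 and 0.0668 in A5-KO, in TPM. In PPs at 0 h it was 1.05 and 1.22 in WT and 0.804 and 0.583 in A5-KO, in CPM per exon length. By exon length *FGA* was thus about as abundant as *FGB* in untreated WT progenitors and less abundant in untreated A5-KO progenitors. It was far below *FGB* in organoids. The ratio was 19.2 times as high in PPs as in hILOs for WT and 10.2 times for A5-KO. With the longer transcript lengths in place of all exons these folds were 17.1 and 9.07, and with the reference transcripts 28.3 and 15.0.

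The ratio of *FGG* to *FGB* differed far less between the stages. It was 0.524 and 0.473 in WT hILOs, 0.451 and 0.433 in A5-KO hILOs, 0.581 and 0.430 in WT PPs and 0.480 and 0.501 in A5-KO PPs at 0 h. The PP ratio was 1.01 times that of hILOs in WT and 1.11 times in A5-KO with exon lengths, and 1.46 and 1.61 times with transcript lengths, so its size rests on the length used. TPM and CPM per length come from different quantifications, and their part in the ratios was not tested.

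The genotypes differed in the *FGA* to *FGB* ratio in opposite directions. A5-KO minus WT, on the log2 scale, was 0.20 in hILOs (s.d. between replicates 0.03) and -0.73 in PPs at 0 h (s.d. 0.25). For *FGG* to *FGB* it was -0.17 in hILOs (s.d. 0.08) and -0.03 in PPs (s.d. 0.22), the latter less than the spread between replicates.

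Act D blocks the making of new RNA, so a steady fall of an mRNA over time would reflect its stability. CPM are shares of the reads that remain, and a transcript that outlasts the others rises in CPM. In WT all 3 chains were higher at 3 h than at 1 h. The median log2 change from 0 h over all genes in WT was -0.13 at 1 h and -0.10 at 3 h. The shares left are therefore given as descriptions and not as decay rates. *FGA* was left in the smallest share. From 4.31 and 3.35 CPM before Act D, its WT libraries were down to 0.11 and 0.07 CPM after 1 h. After 2 h they stood at 0.64 and 0.27 CPM, and after 3 h at 0.72 and 4.01 CPM. The 1 h values came from 4 and 2 reads, and 2.34% of the 0 h mean was left (ratio of summed reads 0.0237, exact 95% counting interval 0.00864 to 0.0524). Of 13620 genes, 2 had a log2 change as low as that of *FGA* at 1 h in WT, *FGA* itself included.

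In A5-KO *FGA* went from 12.2 and 7.97 CPM before Act D to 2.91 and 1.84 CPM after 1 h, then to 1.66 and 1.47 CPM after 2 h, with 2.5 and 1.77 CPM after 3 h. There 23.6% of the 0 h mean was left at 1 h and 15.6% at 2 h. At 1 h the summed reads of *FGA* were 164 in A5-KO and 6 in WT, a ratio of 26.0 after depth. Its exact 95% interval, 11.7 to 72.0, holds counting error only and leaves out the spread between libraries. It is no test of the genotypes. WT replicate 2 at 3 h stood apart, above both A5-KO libraries of that time, while replicate 1 lay below both.

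*FGB* and *FGG* were left in larger shares. In WT *FGB* went from 4.56 and 3.07 CPM before Act D to 1.46 and 1.89 CPM after 1 h, then to 2.34 and 4.01 CPM after 2 h, with 6.15 and 5.28 CPM after 3 h. In A5-KO it was at 16.9 and 15.3, 12.1 and 13.4, 13.2 and 13.6, and 15.3 and 13.4 CPM at the same times. *FGB* in A5-KO thus kept 79.5% to 89.3% of its 0 h mean, and in WT it went down to 43.8% at 1 h and up to 150% at 3 h.

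*FGG* in WT went from 2.18 and 1.08 CPM before Act D to 0.69 and 0.78 CPM after 1 h, then to 0.64 and 0.62 CPM after 2 h, with 2.86 and 2.18 CPM after 3 h. In A5-KO it was at 6.68 and 6.30, 3.37 and 4.09, 4.38 and 3.64, and 5.11 and 3.51 CPM. In WT 44.9% was left at 1 h and 154% at 3 h, close to *FGB*, but 38.8% at 2 h where *FGB* had 83.2%, and *FGG* stayed between 57.5% and 66.5% in A5-KO. All 8 A5-KO libraries lay above all 8 WT libraries for *FGB* and *FGG* but not for *FGA*, an order that held for 1.05% of the 13620 genes.

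**Figure D3:**
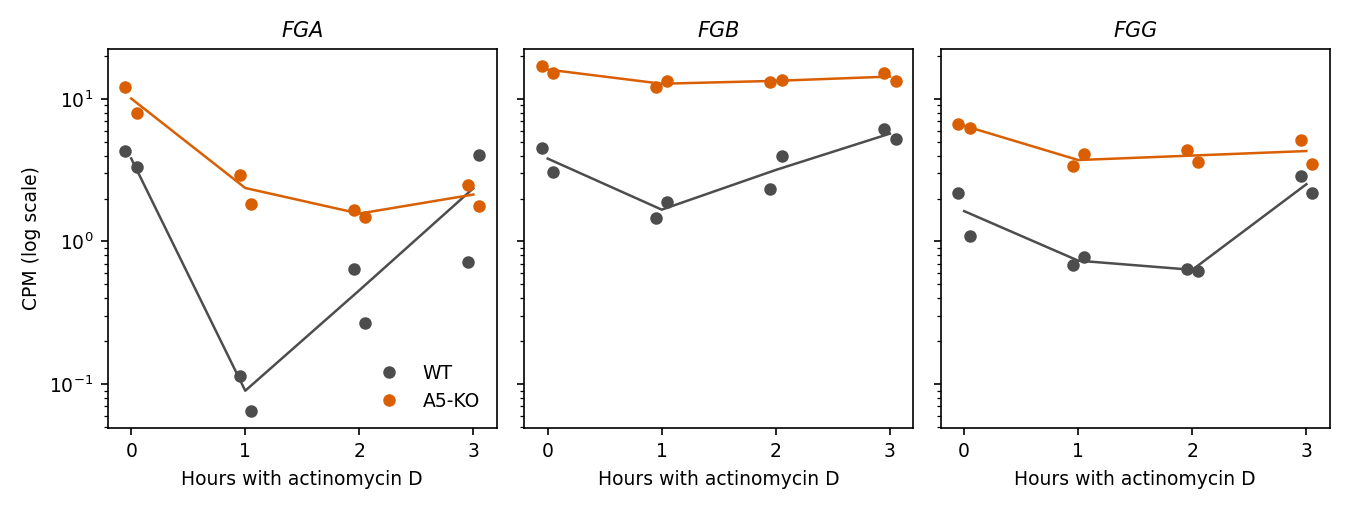
CPM of each chain (log axis) against hours with Act D in WT (grey) and A5-KO (orange) PPs. Points are libraries and lines join the means of 2; *FGA* in WT drops to 0.07 to 0.11 CPM at 1 h and spreads from 0.72 to 4.01 CPM at 3 h.

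In WT the chains were higher at 3 h than at 1 h, and the pancreatic progenitor markers rose less in proportion. Their summed level in WT was 1095 to 1390 CPM at 0 h, 373 to 427 CPM at 1 h, 247 and 573 CPM at 2 h and 456 to 462 CPM at 3 h, and in A5-KO it was 1046 to 1156, 392 to 418, 192 to 198 and 117 to 135 CPM. At 3 h both WT libraries were above both WT libraries of 1 h, with those of 2 h on either side of them, whereas both A5-KO libraries were lower at each later time. The hepatocyte markers took another course, with no fall at 1 h. In WT their sum was 1842 to 1952, 1963 to 2001, 2056 to 2086 and 2334 to 2516 CPM at 0 to 3 h. In A5-KO it was 2589 to 2703, 2888 to 3218, 3178 to 3224 and 3129 to 3277 CPM. How far Act D acted alike in both genotypes was not tested.

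The genotype difference of each chain was smallest at 3 h. On the log2(CPM + 1) scale A5-KO minus WT was 2.37 at 1 h, 1.81 at 2 h and 1.19 at 3 h for *FGB* (standard error 0.20 each), and 1.44, 1.61 and 0.58 for *FGG* (0.22 each). For *FGA* it was 1.61, 0.83 and 0.09 (0.36 each), and at 3 h the A5-KO mean in CPM was 0.903 times that of WT, the opposite direction to the log2 value. The *FGA* to *FGB* ratio changed between 0 and 1 h by -4.29 on the log2 scale in WT (s.d. between replicates 0.60) and by -1.76 in A5-KO (s.d. 0.46).

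Slopes of log2(CPM + 0.1) over the 4 times did not describe these courses by 1 rate. The slope in WT and A5-KO was -0.18 and -0.71 per hour for *FGA* (standard error 0.42 each), 0.26 and -0.04 for *FGB* (0.14 each) and 0.18 and -0.17 for *FGG* (0.19 each). The differences, A5-KO minus WT, were -0.53 (standard error 0.59), -0.30 (0.20) and -0.35 (0.27), against a median of -0.07 over all genes. Over 0 and 1 h alone they were 2.33, 0.80 and 0.19, the other sign, and over 1 to 3 h -1.71, -0.78 and -0.73. Without WT replicate 2 at 3 h the difference for *FGA* was 0.036. With the WT libraries at 2 h left out in turn the mean difference of the chains was -0.43 both times, close to -0.39 with all libraries.

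Over all genes limma called 2.61% with a steeper slope in A5-KO and 0.0661% with a shallower one. With a replicate block limma called 0 of either (unadjusted *p* under 0.05 in 2601 and 311). Of the related lists 3 of 18 hepatic factors were called with a steeper slope in A5-KO, among them *TBX3* (-0.85 per hour, adjusted *p* = 0.0498) and *USF1* (-0.32, adjusted *p* = 0.045). *GATA4*, an endoderm factor (-0.66, adjusted *p* = 0.041), and *CDX2*, the intestinal factor (-0.68, adjusted *p* = 0.036), were called steeper as well. *TMEM131L* was the 1 neighbour of 4 called (-0.34, adjusted *p* = 0.045). Each of the 4 factors named here lost its call in some alternative. The number of slopes called steeper over all genes, leaving out 1 library at a time, ran from 0 to 1442.

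The transcripts differ in features that are often set beside stability. The 3′ UTR of the reference transcript has 219 bases in *FGA*, 2157 in *FGB* and 663 in *FGG*. ATTTA, the core of AU-rich elements that are known to destabilise many mRNAs, occurs 8 times in that of *FGB*, 8 times in that of *FGG* and not in that of *FGA*. It occurs in the 3′ UTR of 67.3% of 19061 reference transcripts, with a median of 2. GGACT, a form of the motif at which m6A is placed, occurs 5 times in *FGA*, 2 times in *FGB* and 4 times in *FGG*, or 2.26, 0.549 and 1.93 times per kilobase against a median of 0.924. No m6A measurement was used here. The 2 sites below, with ATTTA in capitals, are shown as the most upstream of each 3′ UTR, at bases 363 and 79 from the stop codon. In *FGB* another ATTTA, at base 367, overlaps the marked one and is left in lower case.
FGB: ttaaaactatATTTAtttatgtagg
FGG: ctcttactatATTTAttgatttcaa

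Over the 16 PP libraries *FGB* and *FGG* followed each other closely (Pearson's r 0.94 and Spearman's rho 0.94 on log2(CPM + 0.1)), and *FGA* followed them less (r 0.69 with *FGB* and 0.75 with *FGG*). These values describe libraries that share genotype and time, and the genotypes form separate groups. Of 8920 genes whose mean reached 10 CPM, the 5 most like the mean profile of the chains were *RAB27B*, *CALB1*, *SLC7A11*, *TCF24* and *SNRPD3* (Pearson's r from 0.95 to 0.93), and 2 of these were among the first 5 by Spearman's rho. *RAB27B*, a small GTPase of vesicle release, went from 12.2 to 28.9 CPM at 0 h, and *CALB1*, a calcium buffer, from 24.8 to 86.0 CPM.

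None of the 5 was called lower in A5-KO hILOs. *RAB27B* rose from 13.3 to 15.9 TPM in WT up to 38.7 to 43.2 TPM in A5-KO (log2 difference 1.43, adjusted *p* = 0.0087). *TCF24*, a transcription factor gene, rose from 1.31 to 1.48 TPM in WT up to 9.64 to 9.93 TPM in A5-KO (2.17, adjusted *p* = 0.0062). *CALB1*, the cystine carrier *SLC7A11* and the splicing protein gene *SNRPD3* differed by 0.29, 0.08 and -0.09 (adjusted *p* = 0.038, 0.77 and 0.25).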

How the data were processed

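The analysis used 4 hILO and 16 PP RNA-seq libraries of both genotypes. For hILOs the authors aligned reads to GRCh38 with HISAT2 (2.1.0), quantified them with StringTie and deposited TPM per gene. For PPs the authors deposited CPM after removing the ERCC spike-ins; the read counter and annotation release are not given in the sources used here. The CPM values were whole multiples of 1 read for 100% of values (tolerance 0.05), and the reads recovered ran from 30516384 to 35206514 per library. TPM keeps no depth. The half-lives by spike-in conversion were not repeated.

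Genotypes were compared with limma 3.58.1 in R 4.3.3, using moderated variances that follow the mean level, on log2(value + 1). Genes entered where their mean reached 1. A call required both a 1.5-fold change and an adjusted *p* (Benjamini-Hochberg) under 0.05. Slopes were fitted to log2(CPM + 0.1) for each genotype, with the adjusted *p* alone. The smallest *p* an exact permutation of 2 against 2 allows is 0.33. Counts recovered from CPM were tested with edgeR 4.0.16 and DESeq2 1.42.0, which with other scalings, pseudocounts and filters, a replicate block, fewer times and leaving out single libraries were the alternatives. Chain ratios by reference transcript length were added after seeing the data. edgeR called 205 genes lower and 228 higher in PPs. Code was tested on simulated data.

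The members and gene lists were chosen with earlier results of these data known. Named genes are the chains, *ALKBH5*, all protein-coding genes within 1 Mb, at most 3 called genes of each list and comparison with the largest change and, in the genotype where they were higher, a mean reaching 10, *ALB*, *AFP* and *SERPINA1*, and the 5 genes most like the chains; some genes that this rule names are not reported here. Positions, exon lengths and transcripts come from GENCODE on GRCh38. P-values measure only the spread between these libraries.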

Additional observations from a re-analysis of the deposited data

Results flagged for a closer look

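Among the genes named in the text, 14 were found for which every A5-KO library lay on one side of every WT library in hILOs and on the other side in PPs at 0 h. The value given is the log2 difference, A5-KO minus WT, in PPs minus that in hILOs, and this difference between the stages was not tested. Over all genes tested at both stages, 10.7% had the order lower in hILOs and higher in PPs. The share with the opposite order is not given here. Nothing is read from the count of 14, which holds both orders. The members were chosen on this pattern, and it is a description: 1.86 for *FGA* (-0.68 in hILOs and 1.18 in PPs), 2.73 for *FGB* (-0.89 and 1.84) and 2.60 for *FGG* (-1.06 and 1.54).

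Among the related genes it was 1.84 for *SOCS3*, 1.43 for *FOXA1*, 1.15 for *VIM*, 1.09 for *CEBPD* and 1.04 for *APOA4*. It was 0.59 for *CDX2*, and the neighbours *MAP9* and *PLRG1* stood at 0.53 and 0.31. The opposite order, higher in A5-KO hILOs and lower in A5-KO PPs, gave -1.95 for *COL1A2*, -1.81 for *A2M* and -0.72 for *SERPINA1*.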

How the results depend on the processing

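The genotype difference of the chains kept its direction under all alternatives tried at 0 h and in hILOs, and the slope difference did not. The mean of the chains in hILOs was -0.88 and became -0.81 when scaled by median of ratios and -0.82 when quantile normalized. In PPs at 0 h it was 1.52, and 1.81 with a pseudocount of 0.1 and 1.78 with edgeR and with DESeq2. The mean slope difference was -0.39, 1.11 over 0 and 1 h, -1.07 over 1 to 3 h, -0.10 with a line through the origin, and -0.70 to -0.14 with each library left out, the ends being WT replicate 1 at 0 h and WT replicate 2 at 3 h. Over 0 and 1 h *FGA* was at 2.33, *FGB* at 0.80, *FGG* at 0.19 and *CDX2* at 0.047. With 1 library left out *FGA* ran from -0.99 (without WT replicate 1 at 0 h) to 0.036 (without WT replicate 2 at 3 h). The cause of these changes was not tested.

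Counts over all genes depended more on the fit. In hILOs 707 genes were called lower and 467 higher, 187 and 143 without a filter, and 96 to 203 and 83 to 118 with a library left out, where the lone sample is assumed to vary like the other group. In PPs at 0 h 157 were called lower and 218 higher, 77 and 87 without a filter, and with a library left out 127 to 238 were higher. Steeper and shallower slopes numbered 355 and 9, 91 and 5 when scaled by median of ratios, 23 and 2 when quantile normalized, 2739 and 290 over 0 and 3 h, 3 and 51 over 0 and 1 h, 1591 and 117 over 1 to 3 h, 0 and 0 without a filter (limma, unadjusted *p* under 0.05 in 3164 and 679), and 0 to 1442 and 0 to 62 with a library left out (unadjusted 1870 to 3432 and 214 to 421). With a pseudocount of 1, 165 were steeper.

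Fitting replicate numbers as a block, 385 and 289 genes were called in hILOs, 266 and 365 in PPs at 0 h, and 0 and 0 slopes (limma, unadjusted 2601 and 311). Deviations of same-numbered libraries correlated at -0.01 in hILOs and at 0.12, -0.02, -0.06 and -0.02 in PPs at 0, 1, 2 and 3 h. Between times within a genotype they correlated at -0.17 to 0.12, above 0.1 in 2 of 12 pairs of times. The sources do not tie a number to a batch of cells, so the numbers were not taken to pair the samples. Of 27 related genes named in hILOs 11 kept their side of the limits in every alternative, of 14 in PPs 10 did, and of 4 named for slopes 0 did.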
